A study of Cenococcum geophilum 1.58 with 6 samples.

Results

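The 21 genes described here were switched on in ectomycorrhizal (ECM) root tips of poplar. They are the genes of Cenococcum geophilum with TPM of 5 or more in each of 3 poplar ECM libraries and TPM below 1 in each of 3 libraries of free-living mycelium (FLM), out of 14748 genes in the files. TPM are read counts scaled for gene length and library, so that they sum to 1000000 in each library. RNA-Seq measured mRNA of the fungal strain 1.58 at day 60 of an in vitro system in Petri dishes. The poplar ECM libraries came from single mycorrhizal root tips formed with the hybrid poplar clone INRA 717-1B4 (Populus tremula x alba), and the FLM libraries from pure cultures kept in the same conditions without a host. All libraries hold the same fungal strain, so a level holds for that strain only. ECM root tips also contain plant RNA, and the files give fungal genes only. A lower level in these bulk samples can come from fewer cells or from less RNA per cell, which cannot be told apart.

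In an ectomycorrhiza, fungal hyphae wrap the fine root in a mantle and grow between the outer root cells, where sugars from the plant are exchanged for water and mineral nutrients from the soil. Fungi that form it express a set of genes in the symbiotic tissue that are weakly expressed in pure culture, and genes for small secreted proteins, transporters and enzymes are known among such genes. C. geophilum is a darkly melanized ascomycete found on many tree hosts. The secreted proteins that the study lists as regulated in ECM, and 8 further genes given by their ID, were left out. The annotation used here pairs the 21 genes with locus tags only, so no role is given for any of them.

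The total count was between 11197509 and 14396613 in poplar ECM and between 52305281 and 54586073 in FLM. The top 10 genes held 7.61% to 19.9% of a poplar ECM library, and 4.12% to 4.89% of an FLM library. Poplar ECM replicate 1 was sequenced on the older sequencer, like all FLM libraries, and replicates 2 and 3 on the newer one. The number of libraries, 3 a group, limits all values here, and the labels call them biological replicates without saying whether root tips or mycelium of several dishes were pooled. Over the 9400 genes with 5 TPM or more in all 6 libraries, the median gene had in poplar ECM 0.596 times its TPM in FLM, whereas the log2 fold changes that edgeR gave after TMM normalization of the counts had a median of 0.0097. TPM and normalized counts thus sit on different scales between the groups. Among the 22 core eukaryotic genes that the study lists, edgeR called 1 up-regulated. The 3 secreted proteins listed as strongly raised in ECM had higher TPM in every poplar ECM library than in any FLM library. The study picked them from its own RNA-Seq of ECM and FLM, so this is no independent check of the tissue.

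Few of the genes that were low in FLM (below 1 TPM in each FLM library) met the rule. Of the 2240 genes below 1 TPM in each FLM library, 2069 were also below 1 TPM in each poplar ECM library and 49 reached 1 TPM in each of them. Only 22 reached 5 TPM in each poplar ECM library, and 1 of these belongs to the genes left out by ID. None of the 221 listed secreted proteins met both limits, although 11 of them were below 1 TPM in each FLM library. The opposite pattern, below 1 TPM in each poplar ECM library and 5 TPM or more in each FLM library, was found in 2 genes. The 21 genes were chosen by their TPM in these same 6 libraries, which fixes their direction. EdgeR called all 21 up-regulated, against 9.94% of the 12692 genes tested, and nothing is read from that count.

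**Figure D1:**
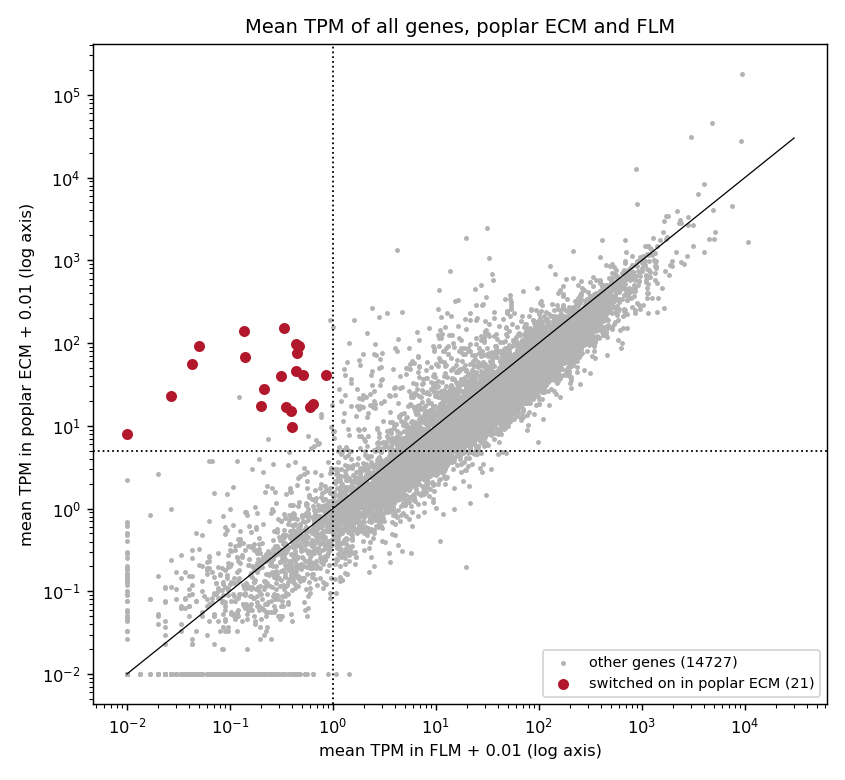
Mean TPM of each gene in poplar ECM (vertical) and in FLM (horizontal), each with 0.01 added and on a log axis. The 21 genes (red) lie above 5 TPM in poplar ECM and left of 1 TPM in FLM (dotted lines), far above the line of equal TPM, and the other 14727 genes are grey.

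Together the 21 genes took 0.0723%, 0.0856% and 0.171% of the TPM of poplar ECM replicates 1, 2 and 3, against 0.000762%, 0.000809% and 0.000477% of those of FLM replicates 1, 2 and 3. In counts this was 20474, 21356 and 26725 in poplar ECM and 501, 534 and 299 in FLM. The 7 most expressed genes exceeded 50 TPM in every poplar ECM library, and 18 of the 21 exceeded 10 TPM. The gap between the lowest poplar ECM library and the highest FLM library was between 13.3-fold and 794-fold, with a median of 68.7-fold over the 20 genes with FLM counts. The median over the 21 genes of the mean TPM was 40.8 in poplar ECM and 0.34 in FLM. On the scale of log2 CPM (counts scaled to 1000000 per library, normalized with TMM, with a prior count of 2) the difference between poplar ECM and FLM was between 5.22 and 10.85. Its median was 7.53, or 7.61 with the gene without FLM counts set at its ratio to 3 counts over the FLM group.

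Cenge3:622121 had the highest mean TPM, with 102, 119 and 238 TPM in poplar ECM replicates 1, 2 and 3, against 0.40, 0.36 and 0.21 TPM in FLM replicates 1, 2 and 3. Its mean was 153 ± 73.9 TPM in poplar ECM and 0.323 ± 0.10 TPM in FLM (SD, n = 3 each). It ranked 839 among all genes by mean TPM in poplar ECM, whereas Cenge3:687859, the last of the 21, ranked 9387. Cenge3:622121 spans 2008 bp on scaffold 77 of the version 2.0 assembly (701124 to 703131). Cenge3:514107, on the same scaffold at 369061 to 369795, followed with 82.1, 105 and 235 TPM in poplar ECM, against 0.14, 0.24 and 0 TPM in FLM. The pair had 34 genes and 331328 bp between them. Both genes had their highest poplar ECM level and their lowest FLM level in replicate 3.

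Cenge3:705820 had 61.5, 68.4 and 159 TPM in poplar ECM, against 0.50, 0.53 and 0.26 TPM in FLM. Cenge3:615902, the longest of the 21 genes with 2861 bp, had 54.5, 58.5 and 162 TPM in poplar ECM, against 0.52, 0.56 and 0.29 TPM in FLM. The poplar ECM profiles of these 2 genes were nearly alike, with replicates 1 and 2 close together and replicate 3 far above either. Cenge3:600714 had 54.0, 61.7 and 115 TPM in poplar ECM, against 0.58, 0.52 and 0.23 TPM in FLM. Cenge3:701633 had 50.7, 64.6 and 88.6 TPM in poplar ECM, against 0.07, 0.20 and 0.12 TPM in FLM. Its poplar ECM levels lay closest together among the 7 most expressed genes, with the highest library 1.75 times the lowest.

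The largest contrasts in the group came from genes with a handful of FLM counts. Cenge3:722696 had 66.7, 55.6 and 150 TPM in poplar ECM, against 0.07, 0.05 and 0 TPM in FLM, where its counts were 5, 4 and 0. Cenge3:636552 had 34.8, 40.2 and 94.6 TPM in poplar ECM, against 0.05, 0.05 and 0 TPM in FLM, with 4, 4 and 0 counts. The first of these had the largest log2 difference of the group, 10.85, and the second 10.36. Cenge3:622167 had 281, 173 and 305 counts in poplar ECM, against 0, 2 and 0 in FLM. Scaled by the library totals, without TMM, its summed counts had a ratio of 1538 between poplar ECM and FLM (95% counting interval 424 to 12725, exact, counting error only).

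Cenge3:687859 was the only one of the 21 genes without a count in FLM. It had 88, 66 and 38 counts in poplar ECM (8.97, 7.60 and 7.10 TPM), against 0 counts in each FLM library. Set against 3 counts over the FLM group, the limit that a count of 0 allows, its level was 259-fold higher in poplar ECM by library totals. With counting error in both groups, the lower 95% limit of its fold was 209. It was also the weakest of the group in poplar ECM and the single gene with its highest TPM in poplar ECM replicate 1. In all, 5 of the 21 genes had 0 counts in at least 1 FLM library, and 6 had under 10 counts in every FLM library. The other 15 genes had a low but measurable level in FLM, and the FLM counts of the group, summed over the 3 libraries, had a median of 56 and reached 162.

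**Figure D2:**
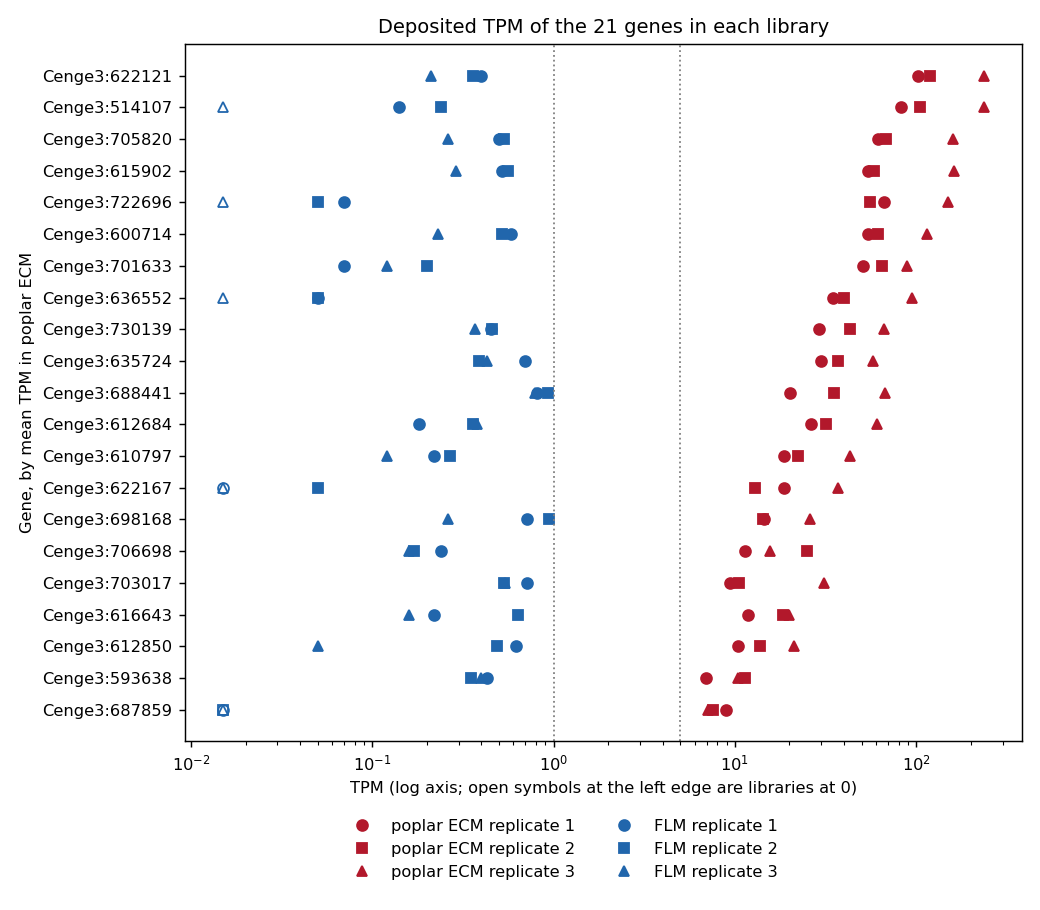
TPM (log axis) of each of the 21 genes in poplar ECM replicates 1 to 3 (red) and FLM replicates 1 to 3 (blue), ordered by mean TPM in poplar ECM. Dotted lines mark 1 and 5 TPM and open symbols libraries at 0. All red points lie between 6.89 and 238 TPM and all blue points at or below 0.94 TPM.

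In the middle of the order, Cenge3:730139 had 29.2, 43.2 and 66.0 TPM in poplar ECM, against 0.45, 0.46 and 0.37 TPM in FLM. Cenge3:635724, a short gene of 719 bp, had 29.99, 36.9 and 57.7 TPM in poplar ECM, against 0.70, 0.39 and 0.43 TPM in FLM. After TMM normalization this gene was the steadiest of the group in poplar ECM, with the highest library 1.08 times the lowest. Cenge3:612684 had 26.1, 31.9 and 60.8 TPM in poplar ECM, against 0.18, 0.36 and 0.38 TPM in FLM. Cenge3:610797 had 18.6, 22.3 and 43.4 TPM in poplar ECM, against 0.22, 0.27 and 0.12 TPM in FLM. The range of each of the 21 genes over the poplar ECM libraries overlapped that of the next gene in the order by mean TPM. In 4 of the 20 pairs of neighbours in this order the first gene was higher than the next in all 3 poplar ECM libraries, as for Cenge3:612684 over Cenge3:610797, and in the other 16 pairs the order changed between libraries.

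Further down the order, Cenge3:622167, already named for its few FLM counts, had 18.6, 12.9 and 37.0 TPM in poplar ECM, against 0, 0.05 and 0 TPM in FLM. Cenge3:703017 had 9.41, 10.5 and 31.2 TPM in poplar ECM, against 0.71, 0.53 and 0.54 TPM in FLM. In TPM both had poplar ECM replicate 3 far above the other 2. In normalized CPM Cenge3:622167 had 24.3, 14.2 and 27.2 in poplar ECM replicates 1, 2 and 3, so that replicates 1 and 3 lay close together. Cenge3:616643 had 11.9, 18.5 and 19.9 TPM in poplar ECM, against 0.22, 0.64 and 0.16 TPM in FLM. Cenge3:612850 had 10.4, 13.8 and 21.1 TPM in poplar ECM, against 0.62, 0.49 and 0.05 TPM in FLM. In these 2 genes the FLM libraries spread more widely, in relative terms, than the poplar ECM libraries. The smallest log2 difference of the group, 5.22, was that of Cenge3:593638, whose fitted log2 fold change ranked 51 among the 12692 genes tested.

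The genes nearest to the limits show how the rule cuts through a continuum, and are given as a description. Cenge3:698168 was nearest to the FLM limit, with 14.6, 14.3 and 26.04 TPM in poplar ECM, against 0.71, 0.94 and 0.26 TPM in FLM. Cenge3:688441 had 20.2, 35.1 and 67.2 TPM in poplar ECM, against 0.81, 0.93 and 0.79 TPM in FLM, and was thus the gene with the highest FLM level in replicates 1 and 3. Cenge3:703017 followed, with at most 0.71 TPM in FLM. Just outside the FLM limit lay Cenge3:600722, with 115, 156 and 302 TPM in poplar ECM, against 0.66, 1.11 and 0.99 TPM in FLM. That gene was more abundant in poplar ECM than any of the 21 and missed the rule by 1 FLM library. Cenge3:694461 and Cenge3:658163, with highest FLM values of 1.15 and 1.16 TPM, were the next outside.

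At the other limit, Cenge3:593638 had the lowest single poplar ECM value of the group, with 6.89, 11.4 and 10.5 TPM in poplar ECM, against 0.43, 0.35 and 0.40 TPM in FLM. Cenge3:687859 and Cenge3:703017 were next, with lowest poplar ECM values of 7.10 and 9.41 TPM. Just outside, Cenge3:701469 had 5.39, 3.95 and 7.53 TPM in poplar ECM, against 0.73, 0.92 and 0.30 TPM in FLM. Cenge3:705706 and Cenge3:689464 followed, with lowest poplar ECM values of 3.26 and 2.38 TPM. The 6 genes just outside a limit met the other limit and were picked as the nearest to the one they missed. That choice keeps the TPM of poplar ECM and FLM apart in them, so nothing is read from their separation.

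The 3 poplar ECM libraries were not alike in these genes. In TPM, 18 of the 21 genes were highest in poplar ECM replicate 3 and 17 were lowest in replicate 1, and the median ratio of replicate 3 to replicate 1 was 2.25. This ratio was 1.77 over the 9594 genes with 5 TPM or more in each poplar ECM library, so other genes shared much of it. After TMM normalization the ratio was 1.27 in the 21 genes and 0.997 in 9573 such genes with a place in the annotation. Replicate 3 was then the highest library for 16 of the 21 genes (76.2%), against 39.8% of the 9573 genes. It exceeded replicate 1 by more than 1.5 times in 5 of the 21 genes (23.8%), against 2.10%. Replicate 3 was also the library with the fewest counts and the lowest share in its 10 top genes. The part of these differences in the pattern was not tested.

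The spread within poplar ECM differed from gene to gene. Cenge3:688441 and Cenge3:703017 had the widest range in TPM, with the highest library 3.32 and 3.31 times the lowest, followed by Cenge3:615902 with 2.97 times. Cenge3:687859 (1.26 times), Cenge3:593638 (1.66 times) and Cenge3:616643 (1.67 times) had the narrowest. Cenge3:706698 departed from the common order, with 11.4, 25.1 and 15.6 TPM in poplar ECM, against 0.24, 0.17 and 0.16 TPM in FLM. In normalized CPM it had 33.5, 62.1 and 25.7 in poplar ECM replicates 1, 2 and 3, the widest range of the group on that scale (2.42 times). Cenge3:616643, the shortest gene with 359 bp, had only 69, 95 and 63 counts in poplar ECM, against 3, 9 and 2 in FLM, so that its levels are the least exact beside those of Cenge3:687859.

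**Figure D3:**
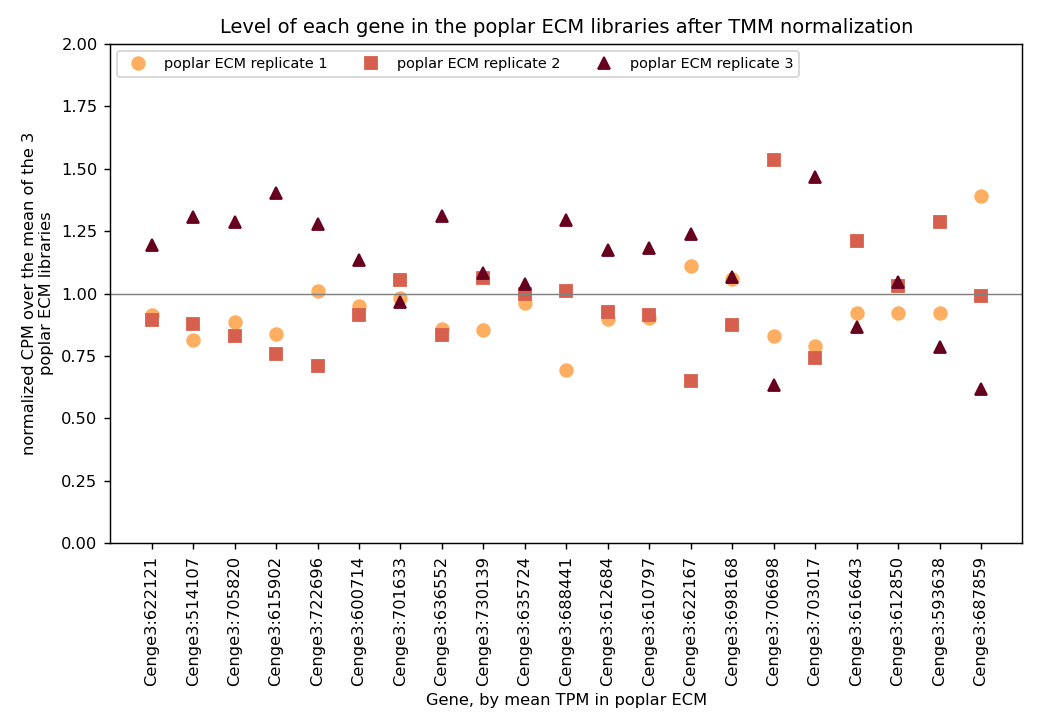
Normalized CPM of each of the 21 genes in poplar ECM replicates 1, 2 and 3, divided by the mean of these 3 libraries. Replicate 3 (dark triangles) is the highest in 16 genes, and Cenge3:706698, with replicate 2 on top, has the widest range.

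In FLM the levels were low throughout, but not the same in each library. The summed TPM of the 21 genes was 7.62, 8.09 and 4.77 in FLM replicates 1, 2 and 3, and 14 of the 21 genes (66.7%) had their lowest value in replicate 3. Of the genes with 5 TPM or more in each FLM library, 41.6% were lowest in that replicate. Cenge3:612850 had 308, 362 and 340 counts in poplar ECM, against 43, 35 and 3 counts in FLM, and so differed more between the FLM libraries than between those of poplar ECM.

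The 21 genes were placed on 19 scaffolds of the RefSeq annotation. The rule used no position, so the genes beside them can be tested. Of the 40 immediate neighbours outside the group, 33 had enough counts for a test, and edgeR called 8 up-regulated (24.2%, against 9.94% of all genes tested) and 0 down-regulated (against 3.28%). At an unadjusted p under 0.05, 4 of the 33 were lower in poplar ECM, and DESeq2 and limma also called 0 down-regulated. With library totals alone in place of TMM the count was 8 up-regulated and 3 down-regulated. Of the 127 genes tested within 4 genes on each side, 28 were up-regulated (22.0%) and 4 down-regulated (3.15%), and 19 were up-regulated with library totals alone. For comparison, of the 2049 genes tested next to any up-regulated gene, 402 were up-regulated as well (19.6%). Among the 8 up-regulated immediate neighbours is a secreted protein that the study had already listed as strongly raised in ECM. The 8 up-regulated neighbours lay between 196 and 131147 bp away (median 1326 bp), and the 25 others between 205 and 98284 bp (median 5983 bp).

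The largest change among these neighbours was that of a listed small secreted protein that lies 131147 bp from Cenge3:698168. It is among those that the study picked as strongly raised in ECM from its own RNA-Seq of ECM and FLM. Its call is thus no independent result. The gene had 200, 223 and 277 TPM in poplar ECM, against 3.79, 3.18 and 3.17 TPM in FLM (log2 fold change 6.92 ± 0.22 (SE), edgeR adjusted p = 4.38e-08). Cenge3:90931, 196 bp from Cenge3:635724, had 2.30, 2.39 and 6.68 TPM in poplar ECM, against 0, 0.16 and 0 TPM in FLM (log2 fold change 6.38 ± 0.80 (SE), edgeR adjusted p = 0.000299). It thus showed the pattern of the 21 genes at a lower level.

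Cenge3:614615, 470 bp from Cenge3:706698, had 50.3, 77.0 and 50.5 TPM in poplar ECM, against 1.14, 1.71 and 1.26 TPM in FLM (log2 fold change 6.29 ± 0.35 (SE), edgeR adjusted p = 9.26e-07). Like its neighbour of the 21, it was highest in poplar ECM replicate 2. Cenge3:418835, 2216 bp from Cenge3:701633, had 51.2, 47.0 and 37.9 TPM in poplar ECM, against 2.60, 2.74 and 1.75 TPM in FLM (log2 fold change 5.15 ± 0.36 (SE), edgeR adjusted p = 3.87e-06). Cenge3:647607, 1451 bp from Cenge3:622121, had 25.5, 35.8 and 45.9 TPM in poplar ECM, against 2.90, 2.92 and 2.99 TPM in FLM (log2 fold change 4.38 ± 0.18 (SE), edgeR adjusted p = 1.13e-07). The groups did not overlap in any of these genes.

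Cenge3:591976, 1200 bp from Cenge3:622167, and Cenge3:603030, 1854 bp from Cenge3:703017, changed less (log2 fold change 2.49 ± 0.26 and 2.25 ± 0.17 (SE), edgeR adjusted p = 8.54e-05 and 8.48e-06). On the other side of Cenge3:622167, 683 bp away, Cenge3:592095 had 16.7, 11.9 and 27.4 TPM in poplar ECM, against 50.5, 53.2 and 77.1 TPM in FLM, and a log2 fold change of -0.93 ± 0.24 (SE, edgeR adjusted p = 0.0176), which is within the limit of 1 in size. This value lay between -1.07 and -0.71 when 1 library was left out, and the gene was called down-regulated without poplar ECM replicate 1 or 3 or without FLM replicate 1 or 2. Genes close to one of the 21 could thus differ widely from it. Cenge3:701634, 205 bp from Cenge3:701633, had 10.6, 16.8 and 15.2 TPM in poplar ECM, against 16.0, 14.9 and 12.5 TPM in FLM, and was not called.

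**Figure D4:**
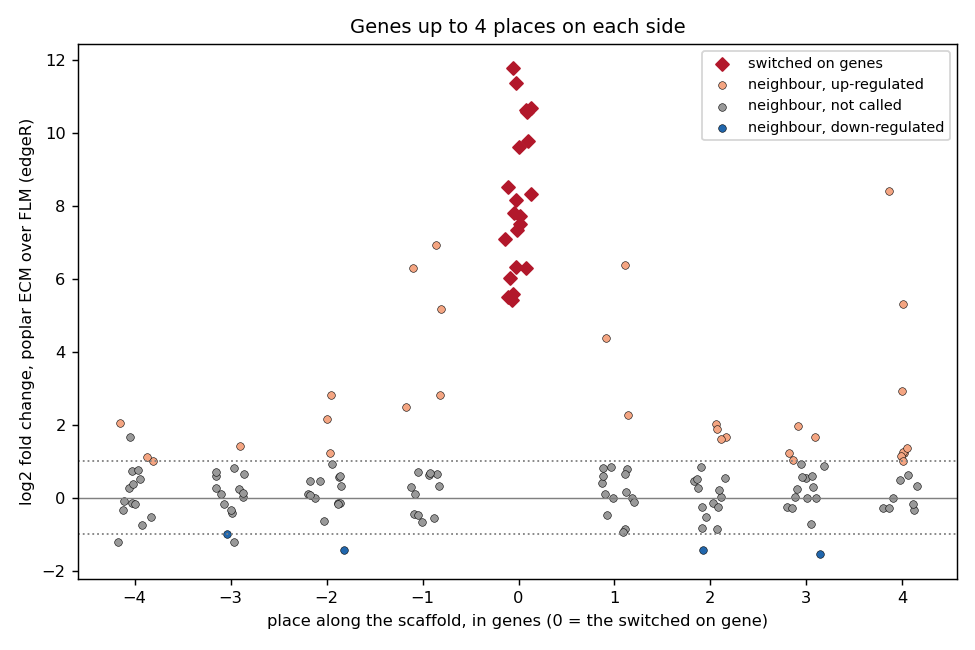
The log2 fold change (poplar ECM over FLM, edgeR) of the 21 genes (diamonds, at 0) and of the genes tested up to 4 places on each side of them along the scaffold. Dotted lines mark a log2 fold change of 1 in size, and 28 neighbours are up-regulated and 4 down-regulated.

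Cenge3:722696 and Cenge3:612684 were the only adjacent pair among the 21 genes, on scaffold 25 with 25466 bp between them (1765907 to 1767896 and 1793363 to 1794980). Looking up to 8 genes to each side, which was decided after the values were seen, 6 of 7 consecutive genes between 1760544 and 1929684 (169141 bp) were up-regulated, these 2 included, whose direction the rule fixed. The ends were set at the outermost up-regulated genes in view. Of the 5 other genes of the stretch 4 were up-regulated, against 9.94% of all genes tested, but the place was picked for this. The first was Cenge3:678085, 889 bp before Cenge3:722696, with 4.69, 7.49 and 10.1 TPM in poplar ECM, against 2.0, 2.09 and 1.32 TPM in FLM (log2 fold change 2.80 ± 0.23 (SE), edgeR adjusted p = 1.19e-05). Cenge3:661243, the next after Cenge3:612684, was the single gene of the 7 that was not called (log2 fold change -0.87 ± 0.46 (SE), edgeR adjusted p = 0.185).

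It was followed by Cenge3:706069, which the annotation names pks9. Genes of this name code for polyketide synthases, large enzymes that build the carbon chains of fungal pigments and other secondary metabolites. This gene had 15.2, 11.7 and 39.3 TPM in poplar ECM, against 11.5, 11.5 and 10.7 TPM in FLM (log2 fold change 1.66 ± 0.26 (SE), edgeR adjusted p = 0.00119), with poplar ECM replicate 3 far above the other two. Of the 20 tested genes with a pks or nps name in the annotation, 5 (25%) were up-regulated, so such a call was not particular to this stretch. Cenge3:661247 came next (log2 fold change 1.21 ± 0.34 (SE), edgeR adjusted p = 0.0252). Its call was lost when any FLM library or either of poplar ECM replicates 1 and 2 was left out (edgeR adjusted p up to 0.123, and between 0.00388 and 0.123 over all alternatives), which leaves 5 of the 7 genes, or 3 of the 5 others. The last was Cenge3:637991, with 25.99, 19.8 and 65.6 TPM in poplar ECM, against 1.23, 1.67 and 1.62 TPM in FLM (log2 fold change 5.31 ± 0.32 (SE), edgeR adjusted p = 1.43e-06).

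In TPM, Cenge3:722696, Cenge3:706069 and Cenge3:637991 had their poplar ECM libraries in the same order, with replicate 3 highest and replicate 2 lowest. Cenge3:612684 and Cenge3:678085 had replicate 1 lowest. Cenge3:661247 ran the other way, with 2.58, 1.97 and 1.79 TPM in poplar ECM, against 1.77, 1.81 and 1.54 TPM in FLM. Replicate 3 was the highest in TPM for 79.2% of the 9594 genes with 5 TPM or more in each poplar ECM library. Replicate 1 was the lowest for 65.2% of them, so nothing is read from these orders. A second polyketide synthase gene, pks8 (Cenge3:653071), lay 4 genes and 68363 bp from Cenge3:730139. It had 214, 193 and 395 TPM in poplar ECM, against 300, 266 and 243 TPM in FLM, and was not called (log2 fold change 0.74 ± 0.23 (SE), edgeR adjusted p = 0.0395).

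Cenge3:600722, the gene just outside the FLM limit, stood 4 genes and 97123 bp from Cenge3:600714. Its log2 fold change was 8.40 ± 0.31 (SE, edgeR adjusted p = 7.32e-08). In TPM both genes were lowest in poplar ECM replicate 1 and highest in replicate 3. Replicate 3 was highest in 79.2% of the genes with 5 TPM or more in each poplar ECM library, and replicate 1 lowest in 65.2%. In normalized CPM Cenge3:600714 had 119, 114 and 141 in poplar ECM replicates 1, 2 and 3, so that replicate 2 was its lowest. Between Cenge3:600714 and Cenge3:600722 lay Cenge3:683688, with 52.1, 53.5 and 113 TPM in poplar ECM, against 27.1, 34.1 and 32.2 TPM in FLM (log2 fold change 1.96 ± 0.19 (SE), edgeR adjusted p = 4.52e-05). The gene directly beside Cenge3:600714 on the same side, Cenge3:535265, had 22.8, 19.4 and 50.1 TPM in poplar ECM, against 52.2, 47.7 and 43.1 TPM in FLM and was not called.

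Many of the 21 genes stood far from the next gene. An intergenic distance over 6500 bp on at least 1 side was found for 13 of them (61.9%), against 32.8% of the 14684 genes placed and 23.5% of the genes with 5 TPM or more in each poplar ECM library. Among all genes below 1 TPM in each FLM library the share was 70.3%, and among those of them with at least 1 count in any library 50.2%. Both distances exceeded 6500 bp in 7 of the 21 genes (33.3%), against 8.85% of all genes placed, 34.3% of all genes below 1 TPM in each FLM library and 15.5% of those of them with a count. The share in the 21 genes thus lay between those of its comparison groups. The median longer distance was 25466 bp in the 21 genes and 24060 bp in all genes below 1 TPM in each FLM library. It was 6579 bp in those of them with a count. Genes without a count in any library could not meet the rule. The part of the FLM limit in these distances was not tested.

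The most isolated were Cenge3:698168 (131147 bp on the longer side), Cenge3:635724 (105546 bp), Cenge3:615902 (98284 bp), Cenge3:610797 (83263 bp) and Cenge3:705820 (82542 bp). Cenge3:705820 had 68067 bp on its other side as well. Of its neighbours, Cenge3:125351 was not called and the other had too few counts for a test. By contrast, Cenge3:622121 and Cenge3:514107, the most abundant genes of the group, had no intergenic distance over 3704 bp. The genes at the top of the order thus included crowded and isolated ones. None of the 21 genes overlapped a neighbouring gene, as 10.9% of all genes placed did.

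**Figure D5:**
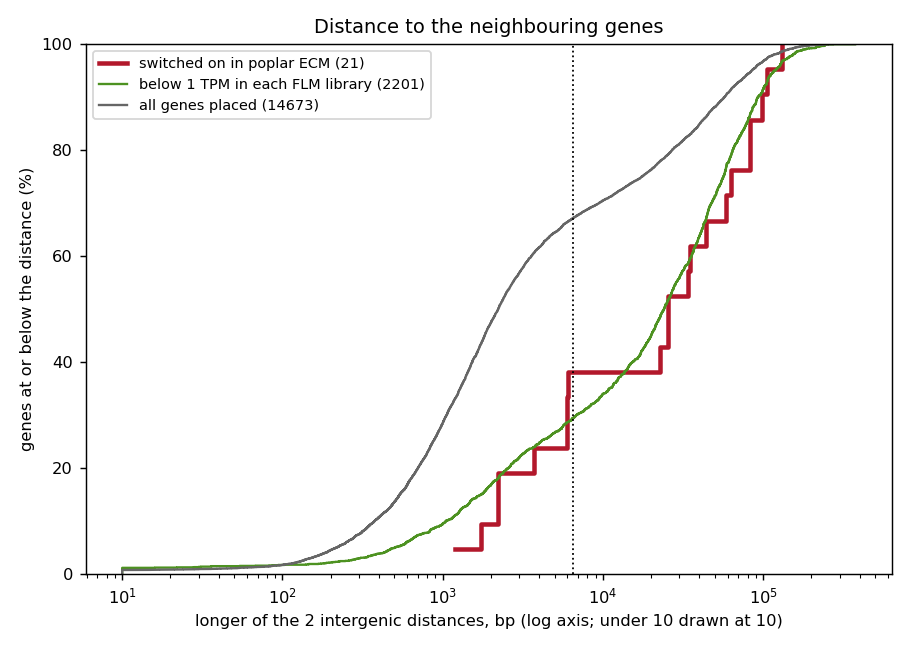
Share of genes (vertical, %) whose longer intergenic distance is at or below the value on the horizontal log axis (bp), for the 21 genes (red), all genes below 1 TPM in each FLM library (green) and all genes placed (grey). The dotted line marks 6500 bp, and the red line runs near the green one and well to the right of the grey one. The green set includes genes without a count in any library.

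The genes were also longer than most genes that were low in FLM (below 1 TPM in each FLM library). Their median span was 1829 bp, against 357 bp for all genes below 1 TPM in each FLM library, 1353 bp for all genes placed and 1570 bp for the genes with 5 TPM or more in each poplar ECM library. Spans between 1500 and 2500 bp were found for 14 of the 21 (66.7%). The share was 26.8% of all genes placed and 33.0% of the genes with 5 TPM or more in each poplar ECM library. Only Cenge3:616643 (359 bp), Cenge3:687859 (606 bp), Cenge3:635724 (719 bp) and Cenge3:514107 (735 bp) were shorter than 900 bp, 19.0% of the group. This was near the 18.5% of the genes with 5 TPM or more in each poplar ECM library. The share was 30.9% of all genes placed and 78.7% of the genes low in FLM. Among the genes low in FLM that had at least 1 count in any library, the median span was 724 bp and 60.7% were under 900 bp. In length the 21 genes were thus closer to the genes with 5 TPM or more in each poplar ECM library. The rule draws the 21 genes from that set, so this closeness is only a description. Of the genes low in FLM, 1224 had 0 counts in all 6 libraries and could not meet the rule.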

How the data were processed

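RNA-Seq libraries of 3 poplar ECM and 3 FLM samples were analysed. After quality trimming, the authors mapped the reads to the reference transcripts and counted them by strand (primary hits, reverse strand only). The submitters' processing notes name HISAT 0.1.4 and featureCounts (version not given in the sources used here). The deposited raw counts are whole numbers and not normalized, and the deposited FPKM and TPM were made from them by the authors, with lengths equal to the whole gene span in 99.9% of the genes with 100 counts or more. The span includes introns, so a gene with long introns has a lower TPM than by transcript length. Depth was between 11197509 and 14396613 counts in poplar ECM and between 52305281 and 54586073 in FLM, so that a gene at 0 in a library may reach 0.268 CPM in the shallowest poplar ECM library and 0.0574 CPM in the shallowest FLM library (3 counts, counting error only).

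The rule and the gene lists were chosen with earlier results of these data known. Members were picked on the deposited TPM, and their levels are a description without a test. The quasi-likelihood test of edgeR 4.0.16 (R 4.3.3) was run on TMM-normalized counts of the 12692 genes that had 10 counts or more in 3 or more libraries. A call needed a Benjamini-Hochberg adjusted p under 0.05 and a log2 fold change of over 1 in either direction. The absolute log2 fold change divided by the square root of F served as its standard error. On simulated counts the code recovered 144 of the 150 genes changed by over 2-fold, with 2 false calls among 12643 genes tested. Genes changed by less were simulated too and are not in this tally. The simulation gave all genes the same biological spread between replicates, so it does not cover differences in spread between genes. DESeq2 1.42.0 and limma 3.58.1 (voom), other limits and leaving out each library were the alternatives. Figures were drawn with Python 3.11.15 and matplotlib 3.10.9.

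Genes were named by a rule: the 12 highest in poplar ECM, those without FLM counts, adjacent ones, the 3 nearest on each side of each limit, and the 3 widest and 3 narrowest ranges in poplar ECM. Neighbours and other genes were named after their values were seen. Positions come from the RefSeq annotation of assembly version 2.0, which holds 14684 of the 14748 IDs. Scaffolds were taken to change where positions fall back, which gave the known scaffold number for 22 of 22 core genes. Sequences, products and protein families of the members were not analysed here, so the planned lists by product name, motifs and protein comparisons were not run.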

Additional observations from a re-analysis of the deposited data

How the results depend on the processing

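The number of genes that meet the rule was 21. With the FLM limit at 0.5 TPM it was 12, with that limit at 2 TPM 40, with the limits on group means 33, and with TMM-scaled RPKM in place of TPM 32. Leaving out 1 library gave between 21 and 27 genes. It can only loosen the rule, so all 21 stay by construction. The other limits tried (deposited FPKM, 10 or 2 TPM in poplar ECM, the lower Poisson bound) gave between 18 and 30. The median log2 difference of 7.53 was 7.20 with library totals alone (where the median of all genes was -0.33), 7.83 with a prior count of 0.5, 7.22 with 5 and 7.82 in DESeq2, and lay between 7.30 and 7.63 when 1 library was left out. Over the alternative edgeR fits with a prior count of 2, the lowest log2 difference of any of the 21 genes was 4.89. A replicate block or sequencer term does not enter this value, and the rule fixed its direction. The share of the poplar ECM libraries was 0.109% of TPM on average and 0.178% of counts, and between 0.0790% and 0.128% without 1 of them. Over all genes edgeR called 1262 up and 416 down; with library totals alone this was 838 up and 1217 down, and with the sequencer as a term 957 up and 199 down. Leaving out 1 library gave between 1037 and 1422 up and between 322 and 572 down. The count of up-regulated immediate neighbours, an alternative added after the values were seen, was 7 or 8 without 1 library, and that within 4 genes between 20 and 27 (28 in all, and 19 with library totals alone). All 8 were called in each of the alternative fits that tested them. Between libraries of the same replicate number the correlation of deviations was 0.033, 0.190 and 0.234. Each poplar ECM library correlated best with the FLM library of its number. This does not settle whether the replicate numbers pair the samples, and the main fit used no pairing. With the replicate block, 1245 genes were called up and 432 down, and the calls of the 8 neighbours stayed. Protein and motif alternatives were not run, since no sequences were used. Depth in poplar ECM limits Cenge3:616643 and Cenge3:687859 most.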
